A study of Mus musculus with 6 samples.

Results

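Lysosomal genes were followed in mouse bone marrow cultures from which dendritic cells (DC) arise, with and without an inhibitor of p38 MAP kinase. The set was a list of 40 genes for lysosomal hydrolases, membrane proteins, proton pump subunits and the transcription factor Tfeb, with the cathepsins left out. The rule took the brightest probe of each gene and kept a gene detected on any of the 6 arrays, detection meaning that the file's detection p-value was under 0.01. Of the 40 genes, 39 had a named probe, 36 were kept and 35 entered the tests, out of 19057 named genes of which 9913 were detected at least once and 9221 were tested. Cd68 is not analysed here, since no probe is named for it. Aga, Sgsh and Atp6v0d2 were not detected on any array, and Tfeb was detected on 1 array only, which was too few for the tests.

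Marrow cells of C57BL/6 mice were grown in GM-CSF (20 ng/ml), the cytokine that drives marrow precursors towards DC. Treated cultures contained SB202190, which blocks p38 kinases and has a labelled concentration of 1.5 mM, a unit that could not be checked here. Control cultures contained 0.1% DMSO. RNA came from cells cultured for 2 days (labelled pre-DC), from immature DC, the semi-adherent cells of day 7, and from mature DC, which then spent 48 hours with 10 ng/ml of each of the inflammatory cytokines TNF-a and IL-1b. There was 1 array for each stage and treatment, so each stage had 2 arrays (SB202190 and DMSO) and each treatment had 3. The labels give no age, no number of animals and no statement on whether SB202190 stayed on during maturation.

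Lysosomes are acidic organelles in which hydrolases break down glycans, lipids, sulfated polysaccharides and proteins. A V-type proton pump keeps them acidic, highly glycosylated membrane proteins such as LAMP1 and LAMP2 line them, and NPC1 and NPC2 move cholesterol out of them. Most of the enzymes reach the lysosome through mannose 6-phosphate receptors. TFEB and its relatives switch on many of these genes through a CACGTG-centred element, and in DC the lysosome prepares antigen for presentation.

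Each array detected 14623 to 15328 of its 45281 probes. The mature DC SB202190 array had the lowest number and the lowest median intensity (120.5, with 124.7 to 146.2 elsewhere). The labels state no sort of the day 2 cells, and neutrophil genes were bright in them. The neutrophil markers (11 of 12 with a named probe) summed, as corrected linear intensities, to 264035, 45494 and 23132 in pre-DC, immature DC and mature DC with SB202190, against 277214, 59668 and 21997 with DMSO. The DC gene Itgax (CD11c) was not detected on either pre-DC array and was detected on all 4 later arrays. Macrophage markers (11 of 12 with a named probe) summed to 3020, 31146 and 30320 across these stages with SB202190, against 3470, 28777 and 37956 with DMSO. Cd14 was the brightest of them in mature DC, at a log2 intensity of 14.08 with SB202190 and 14.47 with DMSO. From immature to mature DC, 4 of the 10 tested macrophage markers had a positive difference and 6 a negative one (median -0.35, log2), so the sum does not speak for each marker. The 15 DC markers summed to 45454, 120450 and 134910 with SB202190, against 34533, 97750 and 109088 with DMSO. From immature to mature DC, 10 of the 14 tested DC markers had a positive difference and 4 a negative one (median 0.32), so this sum does not speak for each marker either. Of the T and NK cell markers, Cd3e alone passed detection, on the pre-DC DMSO array. In such mixed cultures, fewer cells of a type and less RNA per cell cannot be told apart, and what these cells contribute to the lysosomal values was not tested.

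In immature DC, 19 of the 35 tested genes were higher than in pre-DC and 2 were lower at an adjusted p under 0.05 (limma, Benjamini-Hochberg over all 9221 genes, with both treatments in the fit). Of all tested genes, 25.6% were called higher and 25.4% were called lower in that step. The fitted difference was positive for 30 of the 35 genes and negative for 5, against 50.1% positive among all tested genes. The positive ones include Acp5, which was below detection at both stages. The 19 called higher include Gla and Galc, which passed the detection filter through the later stages alone. The median difference was 0.60 on the log2 scale for the lysosomal genes and 0.00 for all genes. For the lysosomal genes it was 0.55 when those below background in pre-DC are set at their lower bound. Both immature DC arrays lay above both pre-DC arrays for 27 genes and below both for 5, while 39% and 39.8% of all tested genes did so. The genes that rose were enzymes and membrane proteins, such as Ids, Hexa, Npc2 and Naglu, those that fell were Arsb and Neu1, and none of the 4 tested proton pump genes passed the test.

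**Figure D1:**
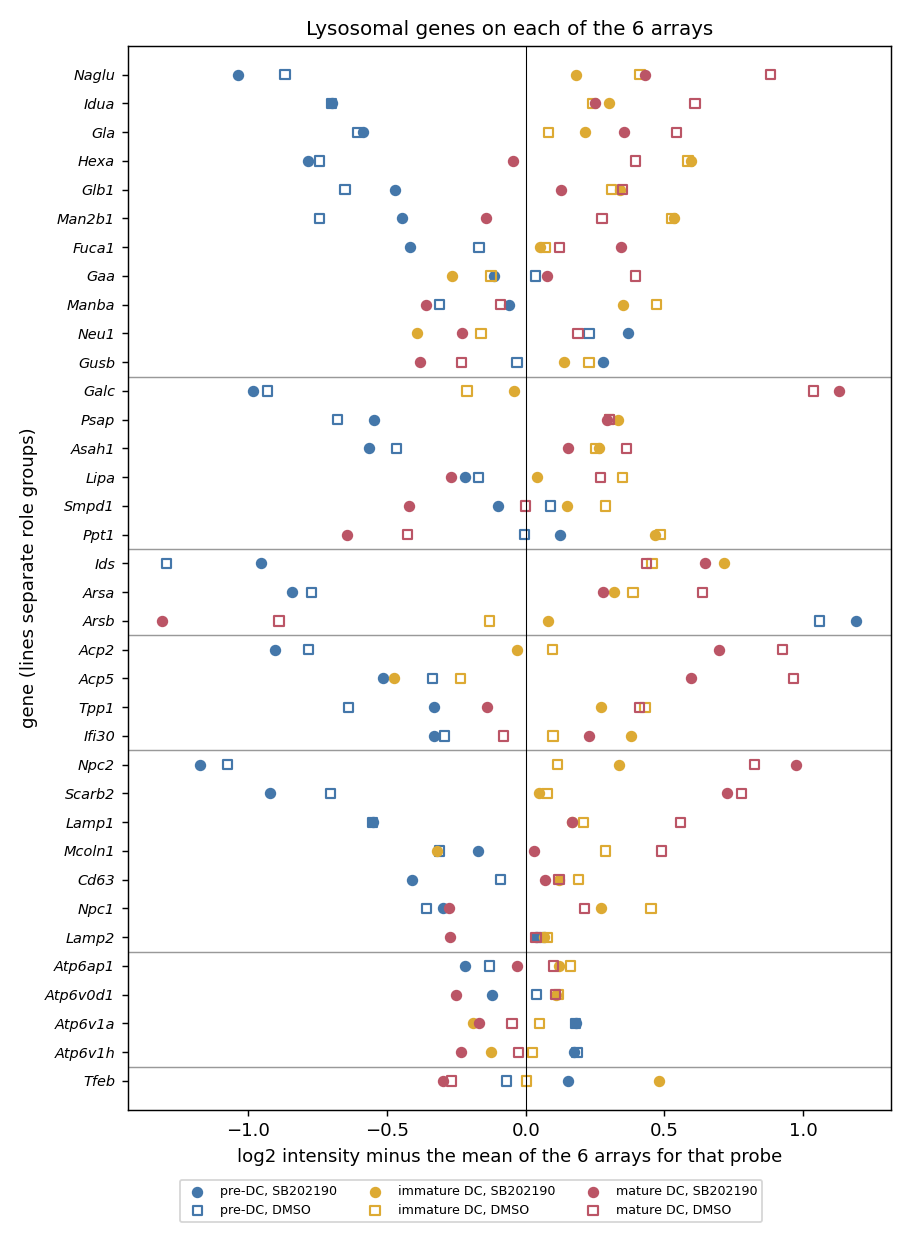
Log2 intensity of each of the 36 detected lysosomal genes on the 6 arrays, minus that probe's mean over the 6 arrays. Filled circles are SB202190 arrays and open squares are DMSO arrays, coloured by stage. For Ids, Hexa, Naglu and Npc2 both pre-DC points sit left of all others, and for Arsb they sit right of all others.

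Among the membrane and cholesterol proteins, 4 of 7 tested genes rose in immature DC and none fell (25.6% and 25.4% of all tested genes did). Npc2, the soluble cholesterol carrier of the lysosome, measured 9.15, 10.66 and 11.30 in pre-DC, immature DC and mature DC with SB202190, against 9.25, 10.44 and 11.15 with DMSO (log2 intensity, as for all values of this form). It rose 2.56-fold in immature DC over pre-DC (log2 difference 1.35, SE 0.14, adjusted p = 0.00105, limma). Scarb2, which carries glucocerebrosidase to the lysosome, measured 8.24, 9.21 and 9.89 across the same stages with SB202190, against 8.46, 9.24 and 9.94 with DMSO. Its rise was 1.83-fold (log2 difference 0.88, SE 0.13, adjusted p = 0.0032, limma), and the stages did not overlap. Lamp1, a major glycoprotein of the limiting membrane, measured 12.83, 13.55 and 13.55 with SB202190, against 12.83, 13.59 and 13.94 with DMSO. It was 1.67-fold higher in immature DC (log2 difference 0.74, SE 0.15, adjusted p = 0.00958, limma), with the 2 pre-DC arrays nearly equal and below the other 4.

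Cd63, a tetraspanin of late endosomes, measured 12.65, 13.18 and 13.13 with SB202190, against 12.97, 13.25 and 13.18 with DMSO. Its immature over pre-DC difference of 0.41 did not pass on the brightest probe (adjusted p = 0.0514, limma). In a fit over all 16624 probes detected on 2 or more arrays, of which 46.7% were called in either direction, both other Cd63 probes rose, ILMN_3052430 by 0.54 (adjusted p = 0.0301) and ILMN_3128907 by 0.49 (adjusted p = 0.0415). Mcoln1, the calcium and cation channel TRPML1, measured 6.87, 6.72 and 7.07 with SB202190, against 6.73, 7.33 and 7.53 with DMSO. With SB202190 its immature DC array lay below its pre-DC array and with DMSO above it, so the arrays of the 2 stages overlapped and the fitted difference of 0.23 did not pass (adjusted p = 0.39, limma).

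Npc1, the membrane partner of NPC2, measured 11.49, 12.06 and 11.51 with SB202190, against 11.43, 12.24 and 12 with DMSO on its brightest probe, a rise of 1.62-fold in immature DC (adjusted p = 0.0174, limma). Its probes disagreed. In the fit over probes, ILMN_1250418 fell by 0.54 (adjusted p = 0.0347, limma), and with the mean of the detected probes the gene's difference was 0.24 and not called.

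The brightest probe of Lamp2, the receptor of chaperone-mediated autophagy in one of its forms, measured 12.65, 12.68 and 12.34 with SB202190, against 12.67, 12.69 and 12.65 with DMSO. Its immature over pre-DC difference was 0.02 (SE 0.14) and was not called. Other Lamp2 probes rose. In the fit over probes, ILMN_3074259 rose by 0.94 (adjusted p = 0.00396), ILMN_3153207 by 0.74 (adjusted p = 0.00687) and ILMN_2508945 by 0.66 (adjusted p = 0.0134, limma), while ILMN_2605666 differed by 0.14 and was not called. Lamp2 has forms that differ in their last exon, and the files do not say which form each probe reads. Over all lysosomal genes with further detected probes, 24 of 27 other probes of 15 genes had the same sign as the brightest one in this step. Where the brightest probe was called, 9 of 12 other probes were called the same way and 1 the opposite way (46.7% of all probes were called). In mature DC against immature DC, 21 of the 27 had the same sign and 6 the opposite one.

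**Figure D2:**
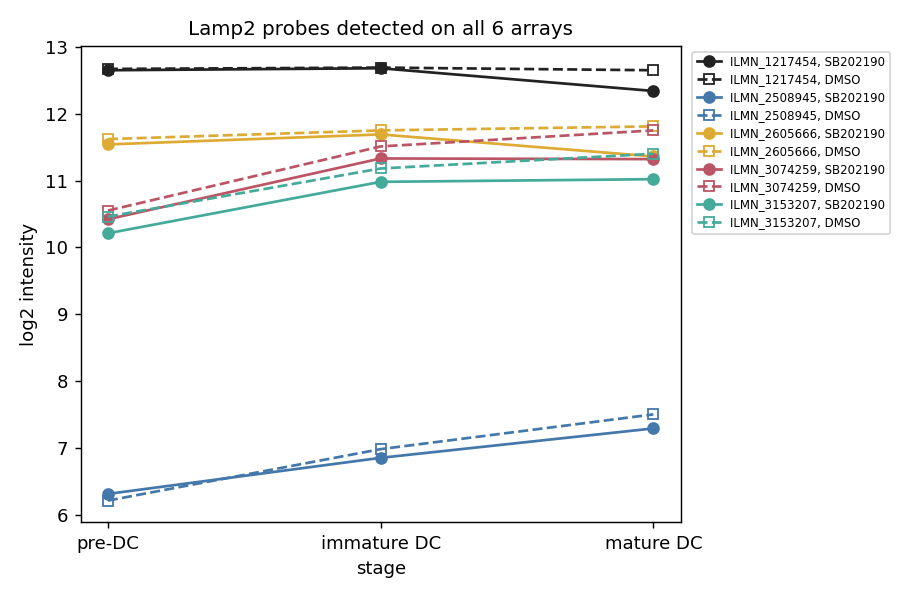
Log2 intensity of the 5 Lamp2 probes detected on all 6 arrays, by stage, with SB202190 as solid lines and DMSO as dashed lines. The brightest probe lies between 12.65 and 12.69 on the pre-DC and immature DC arrays, and ILMN_3074259 and ILMN_3153207 are higher in immature DC with both treatments.

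Tfeb itself was at the edge of detection. It was detected on the immature DC array with SB202190 alone, and measured 5.21, 5.54 and 4.76 with SB202190, against 4.99, 5.06 and 4.79 with DMSO. Promoters of the lysosomal genes were read for the CACGTG element, and 4 of those that carry it are given here as examples, 2 with several copies and 2 with a single copy. RefSeq promoters of build GRCm38.p6, from 250 bases before the start site to 50 after it, matched 35 of the 40 genes. CACGTG, searched on both strands (it reads the same on each), was in 10 of the 32 tested genes with a promoter (31.2%), against 12.1% of the 7571 tested genes of the series with one. The longer TCACGTGA, which contains it, was in 5 of the 32 (15.6%), against 2.39%. The 10-letter form of it, with G before and C after, was in 0 of the 32, against 0.832%. For comparison, the AP-1 motif TGANTCA was in 3 of the 32 (9.38%), against 6.38%. The 10 with CACGTG were Arsa, Atp6v0d1, Atp6v1a, Gaa, Gla (2 copies), Glb1, Ifi30, Lamp1, Mcoln1 and Naglu. Of these, Atp6v0d1, Atp6v1a, Gaa and Mcoln1 were not called in immature DC. The 5 with TCACGTGA were Atp6v0d1, Atp6v1a, Gla, Ifi30 and Mcoln1, of which Gla and Ifi30 were called higher in immature DC. Those with CACGTG included 6 of 10 higher in immature DC (median difference 0.64), and those without it included 11 of 22 higher and 2 lower (median 0.51). Of all tested genes, 25.6% were called higher and 25.4% lower in immature DC. In the sequences, read 5′ to 3′, capitals mark CACGTG, and a match describes letters and not binding. Lamp1 (chr8:13158911-13159210, plus strand) carries 4 copies, beginning 61, 45, 28 and 15 bases upstream of the start site, and Mcoln1 (chr8:3500269-3500568, plus strand) carries 2, at 71 and 45 bases. Naglu (chr11:101069844-101070143, plus strand) has 1 at 73 bases and Glb1 (chr9:114400828-114401127, plus strand) has 1 at 48 bases. Lamp1, Naglu and Glb1 rose in immature DC and Mcoln1 was not called.
Lamp1: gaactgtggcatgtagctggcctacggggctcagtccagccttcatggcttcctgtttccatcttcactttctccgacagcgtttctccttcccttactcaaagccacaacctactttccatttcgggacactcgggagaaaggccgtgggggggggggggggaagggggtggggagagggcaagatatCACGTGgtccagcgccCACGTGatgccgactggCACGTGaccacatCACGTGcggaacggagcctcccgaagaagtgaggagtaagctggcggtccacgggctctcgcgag
Mcoln1: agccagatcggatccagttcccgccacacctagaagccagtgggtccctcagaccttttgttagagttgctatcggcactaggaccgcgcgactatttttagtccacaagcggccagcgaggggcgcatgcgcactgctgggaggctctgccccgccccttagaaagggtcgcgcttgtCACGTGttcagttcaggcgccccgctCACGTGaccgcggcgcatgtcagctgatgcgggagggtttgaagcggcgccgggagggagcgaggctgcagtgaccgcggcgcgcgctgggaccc
Naglu: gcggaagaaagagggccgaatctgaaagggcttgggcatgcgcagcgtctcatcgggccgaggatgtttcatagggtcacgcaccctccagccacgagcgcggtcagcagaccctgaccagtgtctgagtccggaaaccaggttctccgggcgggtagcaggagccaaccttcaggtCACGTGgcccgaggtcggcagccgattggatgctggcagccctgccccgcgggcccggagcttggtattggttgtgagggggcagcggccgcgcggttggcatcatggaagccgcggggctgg
Glb1: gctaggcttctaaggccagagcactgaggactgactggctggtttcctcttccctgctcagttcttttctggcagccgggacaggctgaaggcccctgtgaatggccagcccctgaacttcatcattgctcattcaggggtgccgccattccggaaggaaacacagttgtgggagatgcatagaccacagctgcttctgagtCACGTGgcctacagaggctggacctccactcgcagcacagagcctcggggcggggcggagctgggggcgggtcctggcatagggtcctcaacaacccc

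Of the glycan-degrading enzymes, 7 of 11 tested genes rose in immature DC and 1 fell (25.6% and 25.4% of all tested genes did). Hexa, the alpha subunit of the hexosaminidase that cleaves GM2 ganglioside, measured 10.79, 12.17 and 11.53 with SB202190, against 10.83, 12.16 and 11.97 with DMSO. It rose 2.56-fold (log2 difference 1.36, SE 0.16, adjusted p = 0.00151, limma), and the treatments gave almost the same value at both stages of the step. Naglu, which cuts heparan sulfate, measured 6.61, 7.83 and 8.08 with SB202190, against 6.78, 8.06 and 8.53 with DMSO, a rise of 2.38-fold (log2 difference 1.25, SE 0.14, adjusted p = 0.00123). Man2b1, the lysosomal alpha-mannosidase, measured 12.69, 13.67 and 12.99 with SB202190, against 12.39, 13.66 and 13.41 with DMSO, 2.18-fold higher in immature DC (adjusted p = 0.00558). Its pre-DC arrays differed by more than its immature DC arrays did.

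Idua, which removes iduronic acid from heparan and dermatan sulfate, measured 7.60, 8.60 and 8.55 with SB202190, against 7.60, 8.54 and 8.91 with DMSO, and rose 1.96-fold (adjusted p = 0.00417, limma). Glb1, the acid beta-galactosidase, measured 9.24, 10.05 and 9.84 with SB202190, against 9.06, 10.02 and 10.06 with DMSO, and rose 1.85-fold (adjusted p = 0.00494). For both genes the 4 later arrays lay above the pre-DC arrays. Gla, which degrades globotriaosylceramide, was not detected on either pre-DC array. It measured 5.11, 5.91 and 6.05 with SB202190, against 5.09, 5.78 and 6.24 with DMSO, at least 1.32-fold higher in immature DC (adjusted p = 0.00737). Such a bound divides the bright stage by the dimmest detected probe of each array, or by the gene's own signal if that is greater. An adjusted p beside a bound belongs to the fitted difference, taken with values below background, and not to the bound. Gla, Galc and Acp5 passed the detection filter only through stages where they were bright. Their calls against stages without detection therefore stand as description.

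Manba, the beta-mannosidase, measured 10.56, 10.97 and 10.26 with SB202190, against 10.31, 11.09 and 10.53 with DMSO, and rose 1.51-fold in immature DC (adjusted p = 0.0265, limma). Neu1, the lysosomal sialidase, went the other way. It measured 11.99, 11.23 and 11.39 with SB202190, against 11.85, 11.46 and 11.81 with DMSO, and was 1.49-fold lower in immature DC (log2 difference -0.58, SE 0.17, adjusted p = 0.0345). The remaining enzymes of the group did not pass in this step. Fuca1, the alpha-fucosidase, measured 6.70, 7.17 and 7.46 with SB202190, against 6.95, 7.19 and 7.24 with DMSO. Gaa, which degrades glycogen, measured 8.71, 8.56 and 8.90 with SB202190, against 8.86, 8.70 and 9.22 with DMSO. Gusb, the beta-glucuronidase, measured 12.98, 12.84 and 12.32 with SB202190, against 12.67, 12.93 and 12.47 with DMSO, and its pre-DC and immature DC arrays overlapped.

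In immature DC against pre-DC, the sulfatases held both the most positive and the most negative difference of the 35 genes. Ids, the iduronate sulfatase of heparan and dermatan sulfate breakdown, measured 9.41, 11.08 and 11.01 with SB202190, against 9.07, 10.82 and 10.80 with DMSO. It rose 3.28-fold in immature DC (log2 difference 1.71, SE 0.12, adjusted p = 0.000411, limma). Arsa, which desulfates sulfatide, measured 8.29, 9.45 and 9.41 with SB202190, against 8.36, 9.52 and 9.77 with DMSO, and rose 2.23-fold (adjusted p = 0.0017). Arsb, which acts on dermatan and chondroitin sulfate, measured 10.79, 9.68 and 8.29 with SB202190, against 10.66, 9.47 and 8.71 with DMSO. It fell at each step and with both treatments, by 2.21-fold in immature DC against pre-DC (log2 difference -1.14, SE 0.19, adjusted p = 0.00465).

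Of the lipid and acyl hydrolases with the saposin precursor, 3 of 6 rose in immature DC and none fell (25.6% and 25.4% of all tested genes did). Psap, the precursor of the saposins that present lipids to hydrolases, measured 14.45, 15.33 and 15.29 with SB202190, against 14.32, 15.30 and 15.30 with DMSO, and rose 1.90-fold (adjusted p = 0.00244, limma). Its deposited intensities of 41282 with SB202190 and 43654 with DMSO in immature DC were close to the array maxima of 45810 and 50913. Asah1, the acid ceramidase, measured 12.40, 13.23 and 13.12 with SB202190, against 12.50, 13.22 and 13.33 with DMSO, and rose 1.71-fold (adjusted p = 0.00493). Galc, which cleaves galactosylceramide, was not detected in pre-DC and measured 5.27, 6.21 and 7.38 with SB202190, against 5.32, 6.04 and 7.29 with DMSO. It was at least 1.61-fold higher in immature DC (adjusted p = 0.00398), and every array of a later stage lay above those of the stage before.

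Lipa, the acid lipase of cholesteryl esters, measured 10.54, 10.80 and 10.49 with SB202190, against 10.59, 11.11 and 11.03 with DMSO. Smpd1, the acid sphingomyelinase, measured 9.53, 9.78 and 9.21 with SB202190, against 9.72, 9.92 and 9.63 with DMSO. Ppt1, which removes palmitate from proteins, measured 8.77, 9.11 and 8.0 with SB202190, against 8.64, 9.13 and 8.22 with DMSO. The immature over pre-DC differences of these 3 genes, 0.38, 0.22 and 0.42, did not pass, with Ppt1 nearest to the threshold (adjusted p = 0.0518, limma).

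The peptidase, phosphatases and thiol reductase gave 3 rises of 4 in immature DC (25.6% of all tested genes rose). Acp2, the lysosomal acid phosphatase, measured 8.68, 9.55 and 10.28 with SB202190, against 8.80, 9.68 and 10.51 with DMSO, 1.83-fold higher in immature DC (adjusted p = 0.00289, limma). Of its 4 probes, 3 rose alike and ILMN_2735575 differed by -0.33 without being called. Tpp1, the tripeptidyl peptidase, measured 8.12, 8.72 and 8.31 with SB202190, against 7.81, 8.88 and 8.86 with DMSO, and rose 1.78-fold (adjusted p = 0.0235). Ifi30, the reductase GILT that opens disulfide bonds of antigens, measured 11.33, 12.04 and 11.89 with SB202190, against 11.37, 11.76 and 11.58 with DMSO, and rose 1.46-fold (adjusted p = 0.0249). Acp5, the tartrate-resistant acid phosphatase, was below detection on all pre-DC and immature DC arrays.

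No proton pump gene passed in this step. Atp6v0d1, a subunit of the membrane sector, measured 12.28, 12.51 and 12.15 with SB202190, against 12.44, 12.52 and 12.51 with DMSO. Atp6v1a, the catalytic subunit, measured 9.47, 9.10 and 9.12 with SB202190, against 9.47, 9.34 and 9.24 with DMSO. Their immature over pre-DC differences were 0.16 (SE 0.14) and -0.25 (SE 0.13). Atp6v1h, a regulatory subunit, measured 11.11, 10.81 and 10.70 with SB202190, against 11.12, 10.96 and 10.91 with DMSO, and the accessory subunit gene Atp6ap1 measured 12.69, 13.03 and 12.88 with SB202190, against 12.78, 13.07 and 13.01 with DMSO. The group's median difference was -0.04, with a range of -0.25 to 0.32. Atp6v0d2, the alternative subunit known from osteoclasts, was below detection throughout.

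**Figure D3:**
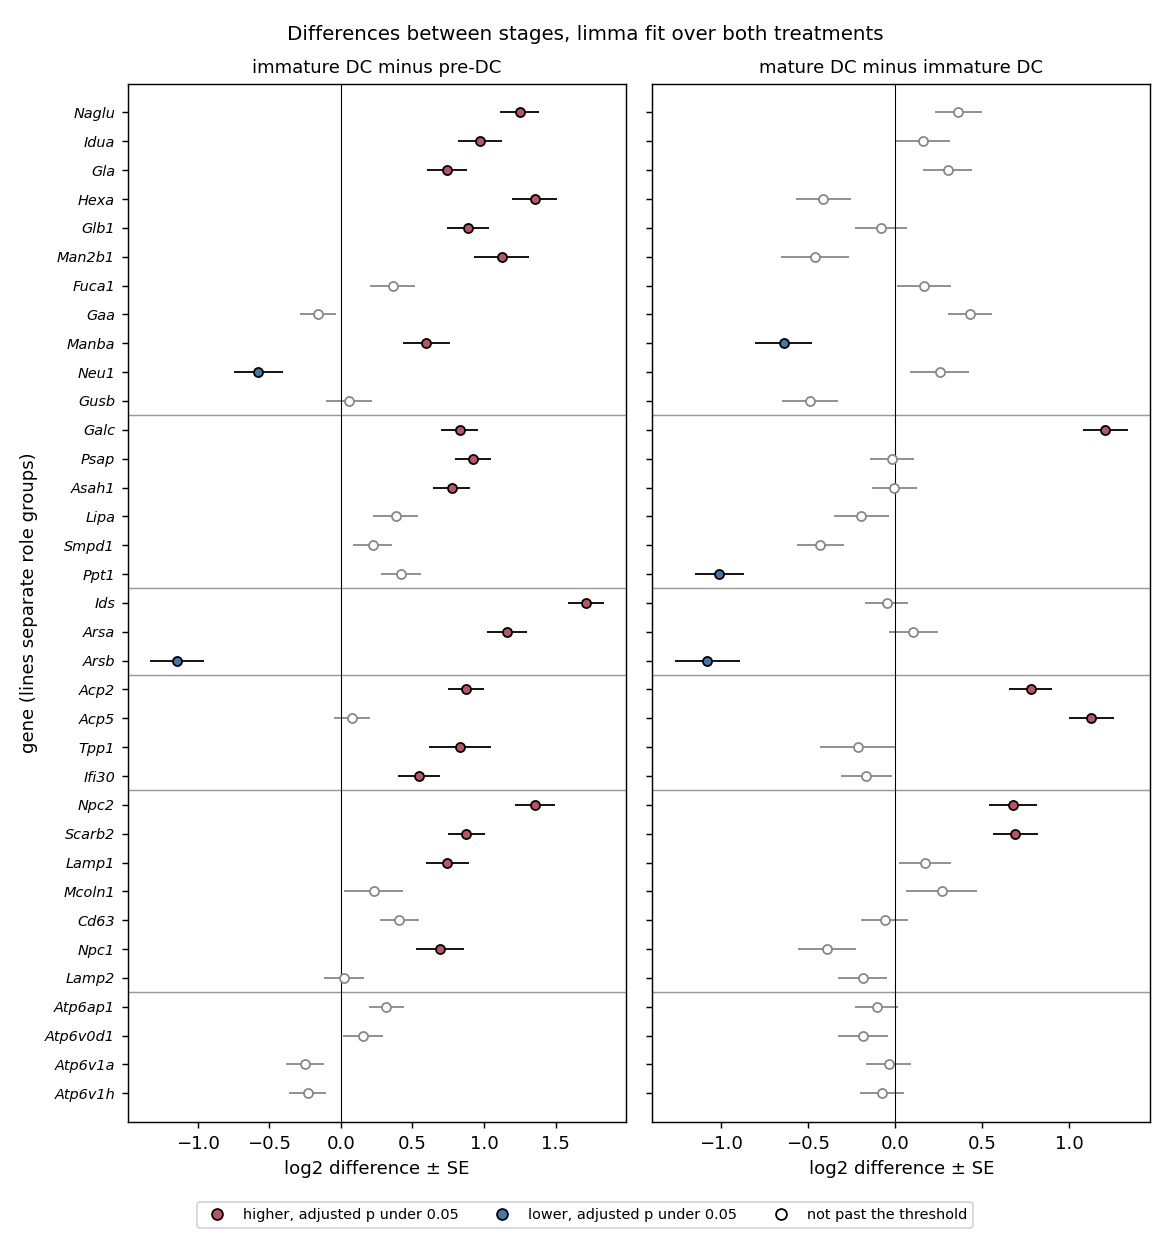
Log2 difference with its SE for the 35 tested lysosomal genes, immature DC minus pre-DC on the left and mature DC minus immature DC on the right, from limma with both treatments in the fit. Red points are higher and blue points lower at an adjusted p under 0.05. On the left 19 points are red and 2 blue, and on the right 5 are red and 3 blue.

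These calls rest on 2 arrays a stage. Without the immature DC array with SB202190, 12 genes were called higher in place of 19, and Asah1, Gla, Ifi30, Lamp1, Manba, Npc1 and Tpp1 were no longer called, while Acp2, Arsa, Arsb, Galc, Glb1, Hexa, Ids, Idua, Man2b1, Naglu, Npc2, Psap and Scarb2 kept their calls under every alternative in which they were tested. The call of Neu1 was lost without the pre-DC SB202190 array or without either immature DC array.

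In mature DC, after TNF-a and IL-1b, 5 genes were higher than in immature DC (10.5% of all tested genes were called higher) and 3 were lower (11.1% were called lower). The median difference was -0.05 for the lysosomal genes and -0.01 for all genes. The arrays of the 2 stages overlapped for 16 genes, with 9 genes above (29.2% of all tested genes) and 10 below (32.3%). These shares are close to those of all genes. Galc rose again, 2.31-fold (log2 difference 1.21, SE 0.13, adjusted p = 0.00415, limma). Acp5 came above background on both mature DC arrays alone, measuring 4.72, 4.76 and 5.83 with SB202190, against 4.90, 5.0 and 6.20 with DMSO, which is at least 1.48-fold higher in mature DC than in immature DC (adjusted p = 0.00475). Acp2 rose 1.72-fold (adjusted p = 0.0119), Scarb2 1.61-fold (adjusted p = 0.0186) and Npc2 1.60-fold (adjusted p = 0.0244), so these 3 and Galc rose at both steps.

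The falls in mature DC were Arsb, 2.11-fold (log2 difference -1.08, SE 0.19, adjusted p = 0.0149, limma), Ppt1, 2.02-fold (log2 difference -1.01, SE 0.14, adjusted p = 0.00837) and Manba, 1.56-fold (log2 difference -0.64, SE 0.16, adjusted p = 0.0434). Next to them and short of the threshold stood Gusb with a difference of -0.49, Man2b1 with -0.46 and Smpd1 with -0.43. In the fit over probes (18.2% of probes called), 2 of the other 3 Gusb probes fell in this step, ILMN_1256735 by 0.91 (adjusted p = 0.00902) and ILMN_2741114 by 0.69 (adjusted p = 0.0197, limma). Gaa, at 0.43, was the nearest of the positive ones that were not called. Of the 8 calls, those of Galc and Acp5 held under every alternative in which they were tested. Acp5 passed the detection filter through its mature DC arrays alone, so its call stands as description and is no support of its own. Leaving out any 1 of the 4 immature and mature DC arrays left 2 genes called higher, and none was called lower without the immature DC array of either treatment or the mature DC array with SB202190.

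Over the whole course, mature DC against pre-DC, 17 genes were higher (30.8% of all tested genes) and 2 were lower (30.4%), with a median difference of 0.53. The 17 include Gla, Galc and Acp5, which were not detected in pre-DC and entered the tests through later stages alone. Galc was at least 3.72-fold higher (adjusted p = 0.000141, limma) and Npc2 was 4.09-fold higher (adjusted p = 0.000167). Ids was 3.17-fold, Acp2 3.15-fold, Naglu 3.06-fold and Scarb2 2.96-fold higher, and Acp5 at least 1.49-fold. Arsb was 4.67-fold lower in mature DC than in pre-DC (adjusted p = 0.000295) and Ppt1 1.51-fold lower (adjusted p = 0.0132). Gusb (-0.43), Neu1 (-0.32), Atp6v1h (-0.31) and Atp6v1a (-0.29) had negative differences that did not pass. In the fit over probes (57.3% called), the other 3 Gusb probes fell, by 0.91 (adjusted p = 0.00188), 0.44 (adjusted p = 0.0308) and 0.46 (adjusted p = 0.0282, limma). The Acp2 probe ILMN_2735575 fell by 0.61 (adjusted p = 0.0133), against the rise of the brightest probe. The Cd63 probe ILMN_3052430 rose by 0.61 (adjusted p = 0.0158), and the Lamp2 probes ILMN_2508945, ILMN_3074259 and ILMN_3153207 rose by 1.13, 1.05 and 0.88. This comparison shares its arrays with the other steps, so its counts do not stand apart from theirs.

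The other lysosomal genes, from lists chosen with results of these data known, were read the same way. Of 10 other hydrolases and activators tested, 6 were higher in immature DC than in pre-DC and 1 lower, with a median difference of 0.59. Of all tested genes, 25.6% were called higher and 25.4% lower in that step. Gm2a, the activator that hands GM2 ganglioside to hexosaminidase, measured 12.07, 14.07 and 13.42 with SB202190, against 11.88, 13.98 and 13.64 with DMSO, and rose by 2.05 on the log2 scale (adjusted p = 0.000426, limma). Smpdl3a, a phosphodiesterase related to acid sphingomyelinase, rose by 1.56. Galns, a sulfatase of keratan sulfate, was the one that fell, with a difference of -1.63 (adjusted p = 0.00145). Of 22 other membrane proteins and transporters, 10 were higher and 2 lower, against the same shares of all genes. Gpnmb, a glycoprotein of lysosomes and melanosomes, rose by 2.20, and Slc15a3, a peptide and histidine transporter, by 1.78. Slc11a1, the metal transporter NRAMP1 of phagosomes, was lower in immature DC than in pre-DC (-1.56, adjusted p = 0.000487) and higher in mature DC than in immature DC (1.55, adjusted p = 0.00209), measuring 12.33, 10.76 and 12.31 with SB202190, against 12.59, 11.05 and 12.60 with DMSO.

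Of 12 other V-ATPase subunits tested, 2 were higher in immature DC, Atp6v0a2 by 0.65 and Atp6v0e by 0.50, and none was lower. The median of the 12 was 0.11, and 25.6% of all tested genes were called higher and 25.4% lower. In mature DC against immature DC the lone call was Atp6v0a1, at -0.70 (adjusted p = 0.023, limma). Of all tested genes, 10.5% were called higher and 11.1% lower in that step. Of 13 genes for mannose 6-phosphate tagging and sorting, 3 were higher in immature DC and 3 lower, near the 25.6% and 25.4% of all genes. Igf2r, the large mannose 6-phosphate receptor, rose by 1.18 (adjusted p = 0.00196), the clathrin adaptor subunit Ap1b1 by 1.08 and the adaptor Gga2 by 1.02. The lower ones, named here after their values were seen, were Sort1, the receptor sortilin, at -0.76, and Gnptab and Gnptg, subunits of the phosphotransferase that builds the tag, at -0.66 and -0.37. Gga2 rose again in mature DC, by 1.33 (adjusted p = 0.00879).

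SB202190 against DMSO gave no call. Across the 3 stages, with stage as a block, 0 of the 35 lysosomal genes and 0 of all 9221 genes (0%) passed an adjusted p of 0.05 in limma. At an unadjusted p under 0.05 there were 3 lysosomal genes, 1 higher and 2 lower, and 4.51% of all genes were higher and 4.75% lower. They were Ids, at 0.27 (SE 0.10, adjusted p = 0.529), Naglu, at -0.29 (SE 0.11, adjusted p = 0.533) and Acp5, at -0.26 (SE 0.10, adjusted p = 0.533, limma), which was above background in the mature DC pair alone. The lowest differences were those of Mcoln1 (-0.31, SE 0.17) and Lipa (-0.30, SE 0.13), followed by Naglu, Acp5, Smpd1 (-0.25) and Gaa (-0.20). The highest after Ids were Ifi30 (0.18), Npc2 (0.09), Galc (0.07), Psap (0.05) and Gusb (0.03). None of these can be told from 0 after adjustment.

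The signs were uneven. The fitted difference was negative for 29 of the 35 lysosomal genes, against 48.6% of all tested genes, with medians of -0.11 and 0.01. Among the 32 genes detected on at least 1 array of every pair, SB202190 lay below DMSO in all 3 stages for 13 (15.5% of all such genes) and above it in all 3 for 1 gene, Ids (17.5%). The 13 were Acp2, Arsa, Atp6ap1, Atp6v0d1, Atp6v1h, Cd63, Gaa, Lamp1, Lamp2, Lipa, Naglu, Scarb2 and Smpd1. The count takes signs alone, and some differences were very small. They include Lamp1 in pre-DC (-0.004), and Lamp2 (-0.01) and Atp6v0d1 (-0.01) in immature DC. Without the mature DC pair the median was -0.04, and without the pre-DC pair it was -0.18.

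Within a stage there was 1 array a side and no test. In pre-DC, 18 of the 32 genes that passed detection on either array were lower with SB202190 (46.6% of all such genes), with a median of -0.02. In immature DC, 22 of 35 were lower (48.1%), with a median of -0.03. In mature DC, 30 of 35 were lower (51.9%), with a median of -0.27, against -0.01 for all genes. The one lysosomal gene that differed by 1.5-fold or more was Mcoln1 in immature DC, with a difference of -0.61. Of all such genes, 2.56% in pre-DC, 4.44% in immature DC and 6.38% in mature DC were at least 1.5-fold lower, and 1.97%, 4.4% and 5.44% across the same stages were at least 1.5-fold higher.

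In pre-DC the lowest were Cd63 (-0.32), Fuca1 (-0.25), Scarb2 (-0.22) and Smpd1 (-0.19), and the highest were Ids (0.34), Gusb (0.32), Tpp1 (0.31) and Man2b1 (0.30). In immature DC the lowest after Mcoln1 were Lipa (-0.31), Atp6v1a (-0.24) and Neu1 (-0.23), and the highest were Ifi30 (0.29), Ids (0.26) and Npc2 (0.22) beside Tfeb, which was detected on the SB202190 array alone and at least 1.08-fold higher there. In mature DC the lowest were Tpp1 (-0.55), Lipa (-0.54), Npc1 (-0.48) and Mcoln1 (-0.46), and the highest were Ifi30 (0.31), Fuca1 (0.21), Ids (0.21) and Npc2 (0.15). Ids, Ifi30 and Npc2 were thus above DMSO in both immature and mature DC, and so was Galc (0.17 in immature DC and 0.09 in mature DC). The genes whose treatment differences spread most between stages were Tpp1 (SD of the 3 differences 0.435), Mcoln1 (0.393), Man2b1 (0.364), Arsb (0.342) and Neu1 (0.288).

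The negative shift in mature DC ran through the role groups. The median SB202190 minus DMSO difference there was -0.32 for 11 glycan-degrading enzymes, -0.21 for 6 lipid and acyl hydrolases, -0.36 for 3 sulfatases, -0.30 for the 4 of the peptidase and phosphatase group, -0.30 for 7 membrane and cholesterol proteins and -0.17 for 4 pump genes. Among the other lists it was -0.26 for 11 hydrolases and activators, -0.15 for 22 membrane proteins and transporters and -0.02 for 12 V-ATPase subunits. The mature DC array with SB202190 had the lowest median intensity of the 6 (120.5, against 124.7 for the mature DC DMSO array). It also had the fewest detected probes (14623, against 15266). In 8 bands of mean intensity the median difference of all genes in mature DC lay between -0.04 and 0.01. Quantile normalization gives all arrays the same distribution, so small band medians were largely set in advance and say little about array quality. The macrophage marker sum was 30320 with SB202190 and 37956 with DMSO on the mature DC arrays. The DC marker sum was 134910 with SB202190 and 109088 with DMSO. Each detected DC marker was higher with SB202190 there, by unlike amounts. Fscn1 measured 13.33 with SB202190 and 12.04 with DMSO, while H2-Ab1 measured 15.07 with SB202190 and 15.06 with DMSO. Cd14 was the brightest macrophage marker there. C1qa and C1qc were higher with SB202190 than with DMSO, and the other detected macrophage markers were lower. The part of these in the shift was not tested.

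**Figure D4:**
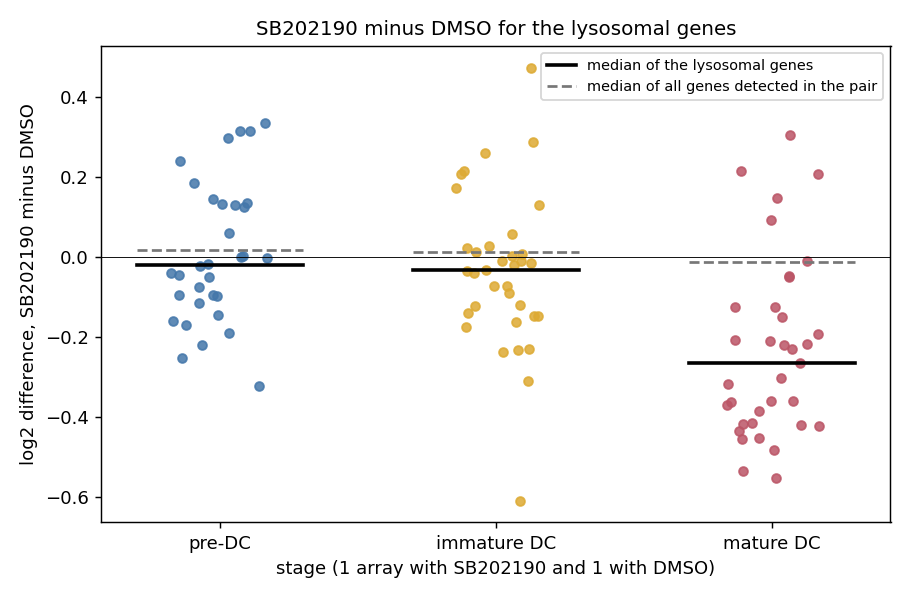
SB202190 minus DMSO, in log2 units, for each lysosomal gene detected on at least 1 array of the pair, by stage, with 1 array a side. Solid bars are medians of the lysosomal genes (-0.02 in pre-DC, -0.03 in immature DC and -0.27 in mature DC) and dashed bars are medians of all detected genes.

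Mature DC minus pre-DC, read within each treatment, had a median of 0.48 with SB202190 and 0.79 with DMSO over the 35 genes. With undetected values raised to the lowest detected signal of their array, these medians were 0.39 with SB202190 and 0.76 with DMSO, and 7 genes with SB202190 and 13 with DMSO were at least 2-fold higher in mature DC. Of all tested genes, 14.9% with SB202190 and 15.0% with DMSO were so. Immature DC minus pre-DC had a median of 0.57 with SB202190 and 0.69 with DMSO. With undetected values raised in the same way, these medians were 0.53 with SB202190 and 0.59 with DMSO. Mature DC minus immature DC had a median of -0.07 with SB202190 and -0.01 with DMSO. With 1 array for each value, these differences between the treatments were not tested.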

How the data were processed

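The 6 Illumina arrays have 1 colour, with 1 array for each stage and treatment. Biotin-labelled cRNA was made from Trizol-extracted, DNase-treated RNA, per the labels' protocols. The authors deposited mean bead intensity values per probe, not normalized, and a detection p-value for each probe and array, per the file headers. The authors also deposited processed intensity values, linear and with column medians of 7.85 to 7.89 and a minimum of -51.1, whose making no header or label describes. They matched their own arrays by rank correlation (1, against at most 0.881 with another array) and served as an alternative only.

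Background correction was normexp (limma 3.58.1, R 4.3.3), with the background inferred from the detection p-values and an offset of 16. Quantile normalization and log2 followed. Of the probes, 34885 have 1 gene symbol in the platform annotation, 18 several (not used) and 10378 none here. The probe with the highest mean stood for its gene, and genes detected on 2 or more arrays were tested. One additive limma model of stage and treatment has 2 residual degrees of freedom, moderated with 3.73 prior degrees of freedom, and its adjusted p-values are Benjamini-Hochberg over all 9221 genes. A response that differs between stages counts as error in it. Nothing says that the cultures were independent, so p-values measure only the spread between these arrays.

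Members and lists were chosen with earlier results of these data known. Named with values were well-known members, the 6 most positive and 6 most negative of each tested comparison, the 4 highest and 4 lowest within a stage, the 5 whose treatment differences spread most, and up to 3 genes of another list per comparison. The alternatives changed the background correction, offset, normalization, source of values, probe choice, detection filter, moderation and block, or left out 1 array. The fit over probes, the brightness bands and the counts that leave out or raise undetected values were added after seeing the data. Arrays give no counts, so their number limits precision. Promoters are from RefSeq, build GRCm38.p6.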

Additional observations from a re-analysis of the deposited data

Results flagged for a closer look

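The lysosomal genes Man2b1 and Tpp1 differed from DMSO in opposite directions at different stages, by at least 1.2-fold on each side. Man2b1 had a SB202190 minus DMSO difference of -0.42 in mature DC and 0.30 in pre-DC, so that the stages differed by -0.72 on the log2 scale. Tpp1 had -0.55 in mature DC and 0.31 in pre-DC, a difference between stages of -0.87. Each value is from 1 array a side, and the difference between stages was not tested.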

How the results depend on the processing

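Alternatives were 9 other settings and 6 fits without 1 array each, in which the lone array of a stage is assumed to vary like the others. For immature DC minus pre-DC, the fits without 1 array called 12 to 20 genes higher and 1 to 2 lower, with medians of 0.54 to 0.74. The median there was 0.40 with no background correction, 0.50 with an offset of 50 and 0.42 with no detection filter, which also called 1 gene lower. For mature DC minus immature DC, the fits without 1 array called 2 to 5 higher and 0 to 4 lower, and 6 were called lower with no background correction, 5 with an offset of 50 and 6 with trend and robust moderation. For mature DC minus pre-DC, the fits without 1 array called 1 to 4 lower, with medians of 0.42 to 0.77, and 4 were called lower with no background correction and 4 with trend and robust moderation. Counts of all called genes moved by over 1.5 times without the immature DC SB202190 array (2588 for immature DC minus pre-DC, against 4701) and without any immature or mature DC array (572 to 858 for mature DC minus immature DC, against 1986). For SB202190 minus DMSO, 41 of all genes passed without either pre-DC array and 1 with trend and robust moderation, none of them a lysosomal gene, and the mature DC median was -0.32 to -0.21 over 7 alternatives. The cause of these movements was not tested.

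Among named calls, 184 of 187 values for immature DC minus pre-DC kept direction and call under the other settings and 108 of 126 without 1 array. For mature DC minus immature DC these were 67 of 70 and 26 of 48, and for mature DC minus pre-DC 168 of 168 and 106 of 114. No direction reversed. Outside the fits without 1 array, the calls lost were Gla with no background correction (0.24), Neu1 with no detection filter, and Npc1 with the mean of all detected probes (0.24) for immature DC minus pre-DC, and Manba with 75th percentile scaling or no detection filter and Scarb2 with the mean of all detected probes (0.37) for mature DC minus immature DC. For mature DC minus pre-DC, Fuca1, Man2b1 and Ppt1 lost their calls without 1 array. The SB202190 minus DMSO fit has stage as a block and so pairs the arrays of each stage. By replicate number, no paired analysis was possible because the labels number no replicates. Probes near background, such as Gla, Galc, Acp5 and Tfeb, limit folds to bounds.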

Other observations

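Autophagy genes, which deliver cell material to lysosomes, were also read. Of 15 tested, 7 were higher in immature DC than in pre-DC and none was lower (25.6% and 25.4% of all tested genes were), with a median difference of 0.34. Uvrag, a partner of the lipid kinase that starts autophagosomes, measured 10.68, 11.91 and 12.37 in pre-DC, immature DC and mature DC with SB202190, against 10.48, 11.43 and 11.98 with DMSO, and rose by 1.09 in immature DC (adjusted p = 0.00184, limma). Gabarapl1 rose by 1.04 and Map1lc3a by 0.99, both members of the ATG8 family that marks autophagosomes. In mature DC, 4 of the 15 were higher than in immature DC (10.5% of all tested genes) and none was lower (11.1%). They were Wipi1 (0.76), Sqstm1, the cargo receptor p62 (0.71), Map1lc3a (0.64) and Uvrag (0.51).

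Of 14 tested relatives of Tfeb and parts of the mTORC1 complex at the lysosome, 2 were higher and 1 lower in immature DC than in pre-DC, below the 25.6% and 25.4% of all tested genes. Rptor, the substrate-binding part of mTORC1, rose by 0.96, and Tsc1, an inhibitor of the pathway, rose by 0.84. Lamtor4, part of the Ragulator anchor, had a difference of -0.89 (adjusted p = 0.00945, limma). Tsc1 was lower in mature DC than in immature DC (-0.71, adjusted p = 0.031). With SB202190 against DMSO, 0 genes of either list and 0% of all tested genes passed at an adjusted p under 0.05 in limma. At an unadjusted p under 0.05 there was 1 gene of each list, while 4.51% of all tested genes were higher and 4.75% lower.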
